A study of Homo sapiens with 12 samples.

Results

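The comparison described here set the drug-resistant colon cancer line LS411N-BR with MUC1 silenced against the untreated line it came from, LS411N. It rested on 6 of the 12 libraries of the series, 3 of each group, chosen by their labels alone, and 3 libraries of LS411N-BR without silencing were set beside them. LS411N is a human colon cancer line that the labels describe as sensitive to BRAF inhibitors, drugs that block the kinase BRAF. LS411N-BR is a resistant derivative that was kept in 4 µM of a BRAF inhibitor. Both lines carried puromycin resistance and a tetracycline-inducible short hairpin RNA (shRNA) against MUC1. The silenced resistant group received 500 ng/ml doxycycline, which switches the hairpin on, with the inhibitor in its medium. The untreated parental group had no doxycycline, no inhibitor and 0.1% DMSO as vehicle, and the unsilenced resistant group had the inhibitor and the vehicle. Cells were cultured in triplicate, and nothing in the labels says whether the triplicates came from separate days, so the spread within a group may be technical. The labels do not give the hairpin sequence, the name of the inhibitor, the time in doxycycline or the number of clones behind LS411N-BR.

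MUC1 encodes a transmembrane mucin of the apical epithelial surface, and its C-terminal subunit, MUC1-C, passes signals into the cell. Cells of the colonic crypt lie along a gradient: stem and progenitor cells at the base respond to WNT, and absorptive colonocytes towards the surface carry brush border enzymes, lipid-binding proteins and keratin 20. Mutant BRAF drives the ERK kinase cascade, and lines grown in a BRAF inhibitor often regain ERK output by other routes. The question the comparison addresses is whether silencing MUC1 brought the resistant line back towards the untreated parental line or took it farther away.

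The deposited values are TPM, transcripts per 1000000 transcripts, in 1 table per line. Levels are given as TPM rescaled over the 25540 genes listed in both tables and then by the median of ratios, as mean ± SD over 3 libraries unless stated, and differences as log2(TPM + 1) with the standard error (SE) of the 3 against 3 means. A gene was compared when it reached 1 TPM in 3 or more of the 6 libraries. This left 11660 genes, 10773 of them protein-coding. A gene below 1 TPM in every library of 1 group passed through the other group only and could be called in 1 direction alone. The worth of 1 read, read from the steps between low values, differed between the tables with transcript length: relative to the median gene it was 0.165 (log2) higher in the LS411N-BR table for the median gene with a longest transcript under 800 bases, and the value was -0.033 for those of 4000 bases or more. Because of this no test was made between the tables, and a gene is called here higher or lower when its groups did not overlap and its means differed by at least 1 on the log2(TPM + 1) scale, called 2-fold below, which understates the change of low genes. A fold given as a multiple for a named gene is the ratio of its mean TPM. Line, inhibitor, doxycycline, hairpin, DMSO vehicle and table all differ between the groups and cannot be told apart. Within the LS411N-BR table doxycycline, hairpin and the DMSO vehicle change together and cannot be told apart, so silencing stands for all of them there. Silenced and unsilenced libraries were tested with limma, two-sided, with Benjamini-Hochberg adjusted p-values. By the same steps, replicate 3 of untreated LS411N was the shallowest library of its group, with 1 read worth 4.54 times as many TPM as in replicate 1. Short RNA genes took 27.5% to 36.1% of the TPM of shared genes in untreated LS411N and 47.3% to 51.4% in silenced LS411N-BR.

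MUC1 checked the labels. The gene lies at chr1:155185824-155192916 on the minus strand (GRCh38, GENCODE 29). Its level was 6.30, 8.15 and 4.75 TPM in the 3 untreated LS411N libraries, 4.48, 4.42 and 5.11 TPM in the unsilenced and 0.686, 0.414 and 0.454 TPM in the silenced LS411N-BR libraries. Every silenced library lay below every other library, whereas the unsilenced resistant and untreated parental libraries overlapped. The silenced mean was 12.4-fold below the parental mean (log2 difference -2.26 ± 0.21 SE), and the fall within LS411N-BR was -1.90 ± 0.08 SE (limma adjusted p = 7.9e-08).

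Over the whole profile, the silenced resistant line lay farther from the untreated parental line than the unsilenced resistant line did. The distance of a library was taken as the root mean square of its log2 differences to the parental mean over the 11660 genes. It was 0.565, 0.566 and 0.580 in the unsilenced and 0.705, 0.690 and 0.718 in the silenced LS411N-BR libraries. The groups did not overlap. The silenced mean of 0.704 ± 0.0138 was 23.6% above the unsilenced mean of 0.570 ± 0.00838, a difference of 0.134 (exact permutation test over the 6 libraries, two-sided, p = 0.1, the smallest that 3 against 3 can give). Both LS411N-BR groups come from 1 table, so the scale of that table enters both distances. A change unrelated to the difference between the lines also lengthens this distance. The distance by itself therefore does not tell movement away from the parental line apart from change in another direction. The mean absolute log2 difference gave 0.415 ± 0.0083 and 0.515 ± 0.0115.

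**Figure D1:**
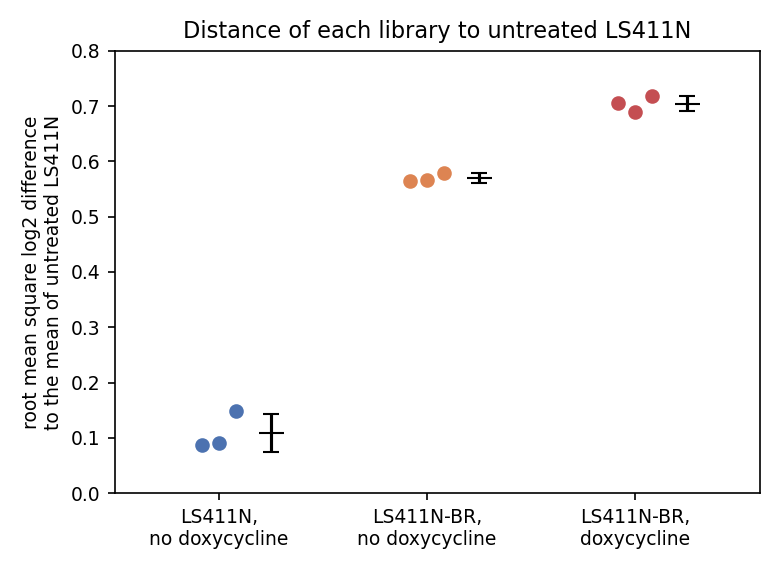
Root mean square log2 difference of each library to the mean of the 3 untreated LS411N libraries (vertical axis, log2 units) in 3 groups (horizontal axis); points are libraries, and the horizontal tick and bar beside them are mean ± SD (n = 3). The silenced LS411N-BR libraries sit between 0.690 and 0.718, above the unsilenced ones at 0.565 to 0.580, and the untreated LS411N libraries, which form the mean themselves, sit between 0.0872 and 0.148.

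For scale, untreated LS411N libraries differed from each other by 0.0989 to 0.229, silenced LS411N-BR libraries from each other by 0.108 to 0.116, and silenced from unsilenced LS411N-BR libraries by 0.339 to 0.359, all as root mean square log2 differences of pairs. LS411N in which its MUC1 hairpin was induced lay at 0.303 ± 0.00282 from the untreated parental mean. The distance between the lines was therefore larger than the spread within any of these groups.

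Against untreated LS411N, 714 genes (6.12% of those compared) were higher in the silenced resistant line and 625 (5.36%) were lower, by at least 2-fold and without overlap. In the unsilenced resistant line, which is compared with the same parental libraries, 364 genes (3.12%) were higher and 372 (3.19%) lower. The filter used the silenced and parental libraries only, so genes at 1 TPM mainly in unsilenced LS411N-BR were not compared. Such genes could have counted as higher in the unsilenced line or as moving back with silencing. In the silenced line all called genes together were 11.5% of those compared. The balance of higher and lower calls depended on the scaling. Here 53.3% of the called genes were higher. The share was 64.0% with each library scaled to one total over protein-coding genes and 44.1% with shared genes scaled to one total only. It was 48.3% to 49.7% without any 1 of the silenced libraries and 55.2% to 57.8% without any 1 of the untreated LS411N libraries. The filter still asked for 3 libraries there, so genes at 1 TPM in the reduced group alone were not compared. Gene by gene, all 3 silenced libraries lay closer to the parental mean than all 3 unsilenced ones for 2203 genes (18.9%), and all lay beyond them for 5257 genes (45.1%). A gene already at the parental level without silencing can only move farther, so an excess of farther genes alone shows no direction. Of the 196 compared genes that silencing changed by at least 2-fold in LS411N-BR (limma), 170 moved farther from the parental mean, 19 nearer and 7 neither way. The median change with silencing was 0.01 on the log2 scale and 0.18 where shared genes were scaled to one total only, so changes of this size depend on the scaling. Against the parental line, colonocyte genes higher than parental numbered 22 to 25, crypt base genes lower numbered 12 or 13 and Paneth and acinar genes lower numbered 6 under the 3 scalings. With silencing, the colonocyte genes that rose by 2-fold numbered 12 here and 16 under each of the other scalings, the crypt base genes that fell numbered 7 or 8 and the Paneth and acinar genes that fell 4 or 5.

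**Figure D2:**
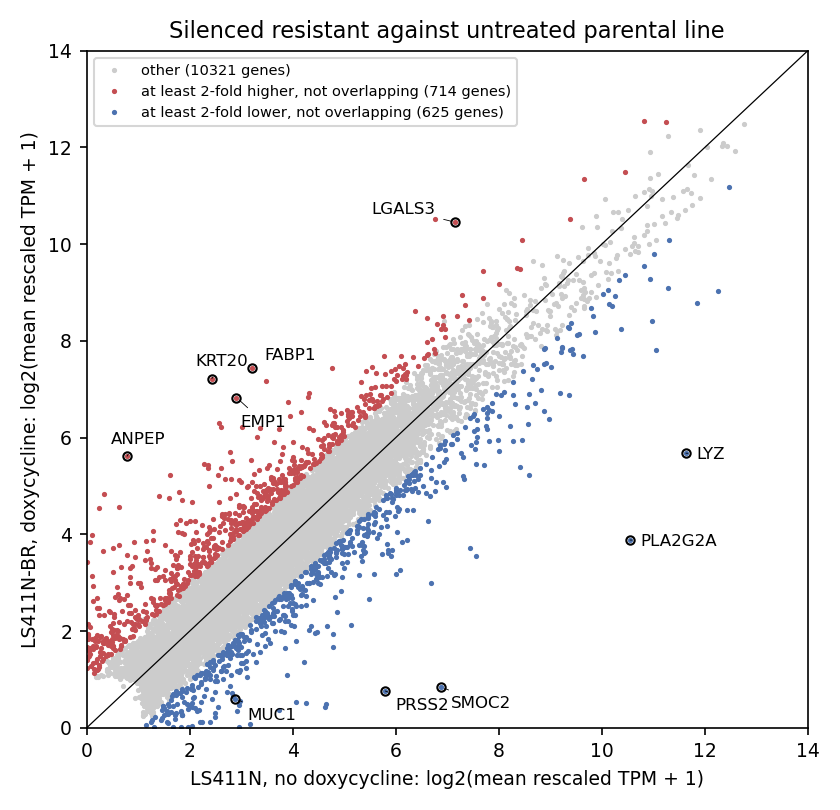
Mean level of each of 11660 genes in untreated LS411N (horizontal axis) and in silenced LS411N-BR (vertical axis), both as log2 of mean rescaled TPM + 1; red and blue points are the 714 higher and 625 lower genes, and the line marks equal levels. KRT20, FABP1, ANPEP and EMP1 lie far above the line, and PLA2G2A, LYZ, SMOC2 and PRSS2 far below it.

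Genes of mature colonocytes stood highest above the parental line. Of the 32 members of the colonocyte differentiation list that passed the level filter, 24 were higher and 1 was lower than in untreated LS411N, with a median log2 difference of 1.66 against 0.04 over all genes compared. Of all genes compared 6.12% were higher and 5.36% lower. In the unsilenced resistant line 15 were higher and 2 lower, with a median of 0.97. Within LS411N-BR 12 of the 32 rose by at least 2-fold with silencing and 0 fell (limma, where 0.908% of all tested genes rose and 0.847% fell by as much; 0 fell by as much at an unadjusted p under 0.05 either), and 28 moved farther from the parental mean while 3 moved nearer. The other 8 listed members did not pass the filter, and their group means reached at most 1.13 TPM (MUC12, silenced). Compared members such as ANPEP, CEACAM7 and MUC17 had parental means under 1 TPM and passed the filter through the silenced libraries. Such members could be called higher but not lower. The list was also chosen with earlier results of these data known.

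KRT20, the keratin of the upper crypt (chr17:40875941-40885227), read 3.84, 4.08 and 5.26 TPM in untreated LS411N and 154, 148 and 142 TPM in the silenced resistant line. In the unsilenced resistant line it read 28.3, 30.0 and 28.7 TPM, so the 3 groups formed 3 separate steps. The silenced mean was 33.7-fold above the parental one (log2 difference 4.80 ± 0.12 SE). FABP1, which carries fatty acids in absorptive cells, went through the same order, with 7.09, 7.96 and 9.76 TPM in parental, 47.9, 49.9 and 46.6 TPM in unsilenced and 178, 184 and 153 TPM in silenced libraries.

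ANPEP, an aminopeptidase of the brush border, had the largest log2(TPM + 1) difference of all named genes that were higher. It stood at 0.684, 0.792 and 0.690 TPM in untreated LS411N, at 23.2, 23.7 and 23.8 TPM in the unsilenced and at 49.4, 47.6 and 47.2 TPM in the silenced resistant line (log2 difference 4.83 ± 0.04 SE). Most of that difference was already there without silencing, since the unsilenced line differed from the parental one by 3.84 and silencing added 1.00 ± 0.03 SE (limma adjusted p = 1.21e-08). MTTP, which loads lipid onto lipoproteins, had a parental mean of 0.185 ± 0.0222 TPM, an unsilenced mean of 9.36 ± 0.815 TPM and a silenced mean of 22.2 ± 0.378 TPM. CEACAM7, an adhesion protein of surface colonocytes, went from 0.0782 ± 0.0236 through 3.33 ± 0.202 to 14.9 ± 1.09 TPM. C10ORF99, a small secreted peptide gene, had means of 0.261, 8.80 and 27.4 TPM in the same order. The 1 called lower member of the colonocyte list was TFF3, a goblet cell peptide (log2 difference -1.74 to untreated LS411N). SLC26A2 (8.58, 6.25 and 5.51 TPM in parental, unsilenced and silenced libraries) and CA2 (34.1, 14.5 and 28.0 TPM) also lay below the parental level, within 2-fold.

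EMP1, an epithelial membrane protein with 4 spans, was among the genes that silencing moved farthest from the parental level. It read 6.51, 6.70 and 6.33 TPM in untreated LS411N, 18.3, 14.4 and 18.9 TPM in unsilenced and 114, 109 and 114 TPM in silenced LS411N-BR. No libraries of different groups overlapped. The silenced level was 17.3-fold the parental one, and the rise within LS411N-BR was 2.65 ± 0.08 SE on the log2 scale (limma adjusted p = 1.6e-08). MUC13, a transmembrane mucin of the apical surface, had means of 121, 235 and 367 TPM in parental, unsilenced and silenced libraries.

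The sequences before the transcription starts of EMP1 and MUC13, from RefSeq (GRCh38.p14), are shown because both genes were higher in silenced LS411N-BR than in untreated LS411N and both hold the AP-1 word TGANTCA, a core that FOS and JUN dimers bind. Each is the 250 bases before the annotated start, 5′ to 3′ in the direction of the gene, EMP1 at chr12:13196476-13196725 on the plus strand and MUC13 at chr3:124934752-124935001 on the minus strand. Capitals mark the AP-1 word and, in MUC13, the reverse strand of the HNF4A word CAAAGTCCA. The words do not overlap.
EMP1: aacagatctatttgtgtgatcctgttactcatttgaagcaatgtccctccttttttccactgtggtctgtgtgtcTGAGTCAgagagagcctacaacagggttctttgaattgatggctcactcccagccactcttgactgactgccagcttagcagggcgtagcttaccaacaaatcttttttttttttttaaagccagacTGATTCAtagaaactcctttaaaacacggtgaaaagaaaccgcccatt
MUC13: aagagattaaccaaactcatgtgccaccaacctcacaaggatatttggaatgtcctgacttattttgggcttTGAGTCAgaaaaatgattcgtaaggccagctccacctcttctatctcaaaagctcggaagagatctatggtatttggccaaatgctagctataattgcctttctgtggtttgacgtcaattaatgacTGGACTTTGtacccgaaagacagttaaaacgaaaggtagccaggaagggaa

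On either strand of windows from 250 bases before to 50 bases after the start, the AP-1 word was in 6.45% of 558 matched higher genes, 6.13% of 506 matched lower genes, 4.33% of all 9256 compared genes that matched a RefSeq window and 7.76% of 27305 windows of all genes. The HNF4A word was in 7 of the 558 higher (1.25%), 0 of the 506 lower and 27 of the 9256 compared genes (0.292%). A word match is a description of the sequence only.

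Stem and progenitor genes of the crypt base lay on the other side. Of 23 compared members of the crypt base and stem cell list, 0 were higher and 13 lower than in untreated LS411N, with a median log2 difference of -1.14. Of all genes compared 6.12% were higher and 5.36% lower. In the unsilenced resistant line 6 were lower, with a median of -0.40. Silencing lowered 8 of the 23 by at least 2-fold (limma) and raised 0, also at an unadjusted p under 0.05, and 16 moved farther from the parental mean against 3 nearer.

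PLA2G2A, a secreted phospholipase of the crypt base (chr1:19975431-19980416), read 1500, 1640 and 1349 TPM in untreated LS411N. It read 215, 221 and 218 TPM in unsilenced and 13.0, 14.04 and 14.2 TPM in silenced LS411N-BR. The groups were far apart at both steps, and the silenced mean was 109-fold below the parental mean (log2 difference -6.66 ± 0.09 SE), the largest difference of any named gene on the log2(TPM + 1) scale, though not by the ratio of mean TPM. SMOC2, a matrix protein of intestinal stem cells, read 115, 126 and 108 TPM in parental, 34.4, 37.8 and 35.2 TPM in unsilenced and 0.949, 0.693 and 0.755 TPM in silenced libraries. Silencing lowered it by more, on the log2 scale, than the step from the parental to the unsilenced resistant line, at -4.36 ± 0.06 SE (limma adjusted p = 2e-10) against -1.67.

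The ephrin receptor EPHB3, a WNT target of the lower crypt, had means of 43.6 ± 1.27, 18.0 ± 0.753 and 5.32 ± 0.153 TPM in parental, unsilenced and silenced libraries. RGMB, a co-receptor for bone morphogenetic proteins, went from 68.9 ± 3.04 to 52.2 ± 2.61 and 13.4 ± 0.348 TPM, most of it with silencing. The stem cell receptor LGR5, the adhesion glycoprotein OLFM4 and the progenitor factor MYB were looked up after their values were seen. OLFM4 and MYB stood higher in the unsilenced resistant line than in the parental line and lowest in the silenced one: OLFM4 at 15.4, 23.6 and 3.30 TPM and MYB at 48.7, 61.9 and 14.2 TPM. LGR5 ran against most of its list, at 24.3 ± 1.27 TPM in untreated LS411N, 39.6 ± 0.873 TPM in unsilenced and 41.5 ± 1.71 TPM in silenced LS411N-BR, and its change with silencing missed the threshold (log2 difference 0.06, limma adjusted p = 0.144). In all 4 of the 23 compared members lay above the parental level. The others were CD44 (134, 193 and 203 TPM in parental, unsilenced and silenced libraries), KLF5 (134, 243 and 226 TPM) and ALDH1A1 (237, 192 and 250 TPM).

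WNT targets, a list that shares members with the crypt base list, were mixed. Of 25 compared, 10 were lower and 1 (KLF12) higher than in untreated LS411N, with a median of -0.59, against 6 lower and 0 higher in the unsilenced line. The shares over all genes compared were 5.36% lower and 6.12% higher than in untreated LS411N. The log2 difference was above 0 for 9 of the 25, among them MYC (68.3, 79.6 and 106.9 TPM in parental, unsilenced and silenced libraries) and CCND1 (73.7, 67.15 and 110.2 TPM). The median change with silencing was -0.12, and 0.02 where shared genes were scaled to one total only. PROX1, a homeobox factor, was already low without silencing, at 6.88 TPM in parental, 0.841 in unsilenced and 0.478 in silenced libraries. ASCL2, a stem cell transcription factor, had means of 38.1, 18.0 and 7.98 TPM. TDGF1, a co-receptor for NODAL, had means of 7.63, 5.401 and 1.06 TPM. In TDGF1 the silencing step was the larger one (-1.63 ± 0.06 SE against -0.43 before silencing).

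Products of Paneth and acinar cells were the lowest group by median. Of 10 compared members 6 were lower and 1 was higher than in untreated LS411N, with a median log2 difference of -2.49, and the summed level of the list was 5049 to 5354 TPM in parental and 296 to 313 TPM in silenced libraries. Of all genes compared 6.12% were higher and 5.36% lower. With scaling over protein-coding genes 11 members were compared and the median was -1.43. LYZ and PLA2G2A, which is also in the crypt base list, held most of the parental sum. The 3 compared members above the parental level were REG1A, the higher one, MMP7 (3.03, 1.94 and 6.37 TPM in parental, unsilenced and silenced libraries) and SPINK1 (2.98, 5.66 and 5.61 TPM). The list has 18 members, and the rest did not pass the filter, which took no account of unsilenced libraries. Of that rest DEFA6 was lower in silenced than in parental libraries, ITLN2 was at 0 in both, and the others were higher. Their largest group means were those of DEFA5 (0.0335, 2.38 and 0.451 TPM in the same order), REG3A (0.0734, 2.05 and 0.392 TPM) and CELA3A (0.326, 1.08 and 1.04 TPM). LYZ, the lysozyme of Paneth cells, read 3081, 3231 and 3218 TPM in untreated LS411N, 185, 174 and 174 TPM in unsilenced and 48.6, 52.8 and 49.4 TPM in silenced LS411N-BR. The larger step lay between the lines (-4.15 on the log2 scale) and the smaller one with silencing (-1.80 ± 0.04 SE). AZGP1, a secreted zinc-binding glycoprotein, had means of 102, 20.1 and 6.97 TPM.

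The trypsinogens PRSS1 and PRSS2 were high in untreated LS411N and low in both LS411N-BR groups. PRSS2 read 45.8, 59.5 and 58.7 TPM in parental, 0.539, 0.205 and 0.481 TPM in unsilenced and 0.644, 0.692 and 0.750 TPM in silenced libraries. PRSS1 read 18.7, 26.6 and 25.4 TPM in parental libraries and 0.291 to 0.745 TPM in all 6 LS411N-BR libraries. Both genes were too low in LS411N-BR for the test of silencing. They are near-identical copies, and the counting may have split reads between them, so their separate levels are uncertain. Their upstream sequences are shown side by side because the pair was lower together. Each is the 250 bases before the RefSeq start (GRCh38.p14, plus strand), PRSS1 at chr7:142749222-142749471 and PRSS2 at chr7:142770720-142770969, 5′ to 3′, with capitals on the AP-1 word and on the reverse strand of the ATF4 word TTGCATCA, which do not overlap.
PRSS1: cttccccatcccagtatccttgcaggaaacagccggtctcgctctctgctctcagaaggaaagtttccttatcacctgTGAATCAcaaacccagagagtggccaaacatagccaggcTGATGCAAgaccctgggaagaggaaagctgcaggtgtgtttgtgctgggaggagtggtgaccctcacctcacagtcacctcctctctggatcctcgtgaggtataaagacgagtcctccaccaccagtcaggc
PRSS2: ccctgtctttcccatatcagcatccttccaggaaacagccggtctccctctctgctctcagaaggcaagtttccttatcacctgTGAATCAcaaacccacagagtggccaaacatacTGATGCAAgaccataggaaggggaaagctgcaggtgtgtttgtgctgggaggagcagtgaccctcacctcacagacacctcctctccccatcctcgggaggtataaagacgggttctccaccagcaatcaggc

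The ATF4 word was in 7 of the 506 lower genes (1.38%), 2 of the 558 higher genes (0.358%) and 45 of the 9256 compared genes (0.486%).

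**Figure D3:**
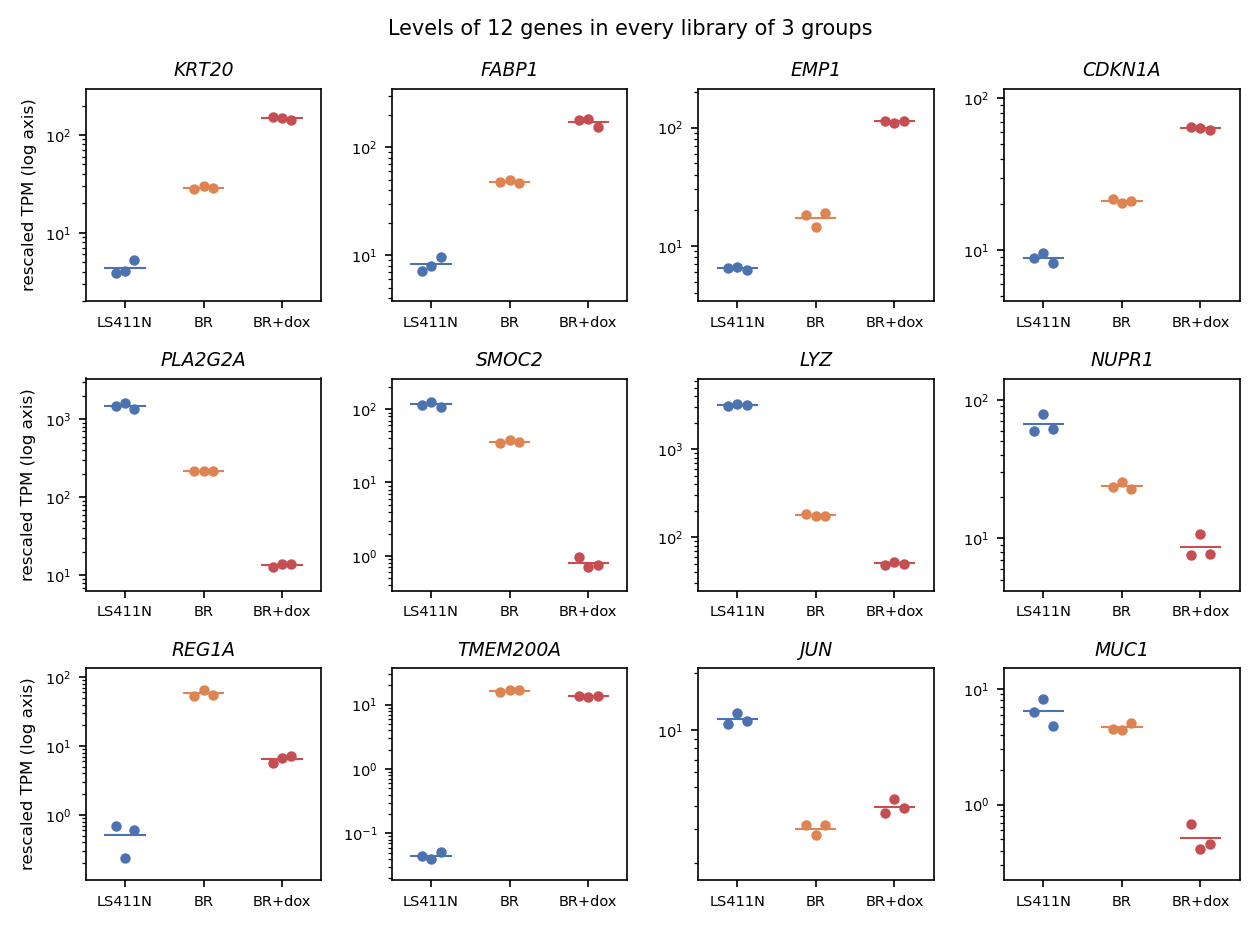
Rescaled TPM (vertical axes, log scale) of 12 genes in every library of untreated LS411N (LS411N), unsilenced LS411N-BR (BR) and silenced LS411N-BR (BR+dox); points are libraries and horizontal lines are means. KRT20, FABP1, EMP1 and CDKN1A step upwards, PLA2G2A, SMOC2, LYZ and NUPR1 step downwards, REG1A, TMEM200A and JUN turn back part of the way towards the parental level, and MUC1 is low in the silenced group alone.

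A smaller set of genes moved back towards the parental level with silencing. REG1A, a secreted regenerating protein, went the farthest back, from 53.8, 64.1 and 55.8 TPM in unsilenced to 5.74, 6.63 and 7.08 TPM in silenced LS411N-BR, against 0.687, 0.239 and 0.5997 TPM in untreated LS411N. It fell by 2.98 on the log2 scale (SE 0.08, limma adjusted p = 4.45e-09) and still lay 12.8-fold above the parental mean. SERPINI1, a serine protease inhibitor, had means of 0.908, 11.4 and 3.45 TPM in parental, unsilenced and silenced libraries and also stayed more than 2-fold above the parental level.

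Other genes came back to within 2-fold of the parental mean. GPRIN3, a partner of G proteins, read 1.16, 1.29 and 1.58 TPM in parental, 6.18, 6.996 and 6.604 TPM in unsilenced and 1.84, 1.81 and 1.91 TPM in silenced libraries. ARHGDIB, a regulator of small GTPases, had means of 1.22, 5.198 and 1.5 TPM. Its change with silencing was -1.31 ± 0.06 SE (limma adjusted p = 1.34e-07), which left 0.18 ± 0.08 SE to the parental level. HBA2, a haemoglobin chain with a near-identical neighbour, and HIST1H3J, a histone of a multicopy family, also came back to within 2-fold, but reads of such copies may be split, so their levels are uncertain. HBA2 had means of 10.1, 38.7 and 14.9 TPM and HIST1H3J of 107, 377 and 170 TPM.

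TMEM200A, a membrane protein gene, moved nearer by a small step only. It read 0.0438, 0.0405 and 0.0509 TPM in untreated LS411N, 15.9, 17.1 and 16.6 TPM in unsilenced and 13.5, 13.1 and 13.8 TPM in silenced LS411N-BR. The fall with silencing was -0.28 ± 0.04 SE (limma adjusted p = 0.000142), and the gene stayed among the 10 largest log2(TPM + 1) differences above the parental line. GPA33, a surface antigen of colonic epithelium, came back part of the way, at 12.5, 87.4 and 44.8 TPM.

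Other genes overlapped between parental and unsilenced libraries and stood apart after silencing. PKIB, an inhibitor of protein kinase A, read 1.86, 1.75 and 2.49 TPM in untreated LS411N and 2.30, 1.82 and 2.43 TPM in unsilenced LS411N-BR, which overlap. In silenced libraries it read 24.6, 26.5 and 27.1 TPM (rise of 3.09 ± 0.07 SE, limma adjusted p = 2.6e-09). SPINK4, a protease inhibitor of goblet cells, overlapped between parental (27.9 ± 3.22 TPM) and unsilenced (27.2 ± 3.48 TPM) libraries and was 4.29 ± 1.18 TPM after silencing. PI3, an elastase inhibitor that differed at both steps, had means of 4.91, 12.8 and 77.4 TPM.

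Of 21 compared drug efflux and detoxification genes, 8 were higher, 1 was lower and 12 lay within 2-fold or overlapped (4 higher and 1 lower in the unsilenced line). The summed level of the list was lower, at 786 to 795 TPM in silenced LS411N-BR against 1050 to 1066 TPM in untreated LS411N. GSTP1 alone held most of that sum, at 836, 559 and 456 TPM in parental, unsilenced and silenced libraries. With silencing 13 of the 21 moved farther from the parental mean against 1 nearer. Of all genes compared 6.12% were higher and 5.36% lower in the silenced line, and 45.1% moved farther and 18.9% nearer. The efflux pump ABCG2 read 11.7, 11.6 and 11.1 TPM in parental, 22.4, 23.8 and 23.6 TPM in unsilenced and 58.5, 58.4 and 59.7 TPM in silenced libraries, with no overlap at either step. The pump ABCC2 overlapped between parental (3.25 TPM) and unsilenced (3.22 TPM) libraries and reached 9.46 TPM with silencing. UGT1A1, which joins glucuronic acid to bilirubin and drugs and shares exons with its neighbours, had means of 0.578, 2.499 and 9.004 TPM, and the epoxygenase CYP2J2 of 8.29, 22.4 and 32.8 TPM. The 1 lower member was the aldehyde dehydrogenase ALDH3A1, at 34.0, 5.37 and 3.37 TPM. Of 31 NRF2 targets 5 were higher and 3 lower (4 and 4 where shared genes were scaled to one total only), the cystine transporter SLC7A11 among the latter (56.2, 25.1 and 13.0 TPM).

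**Figure D4:**
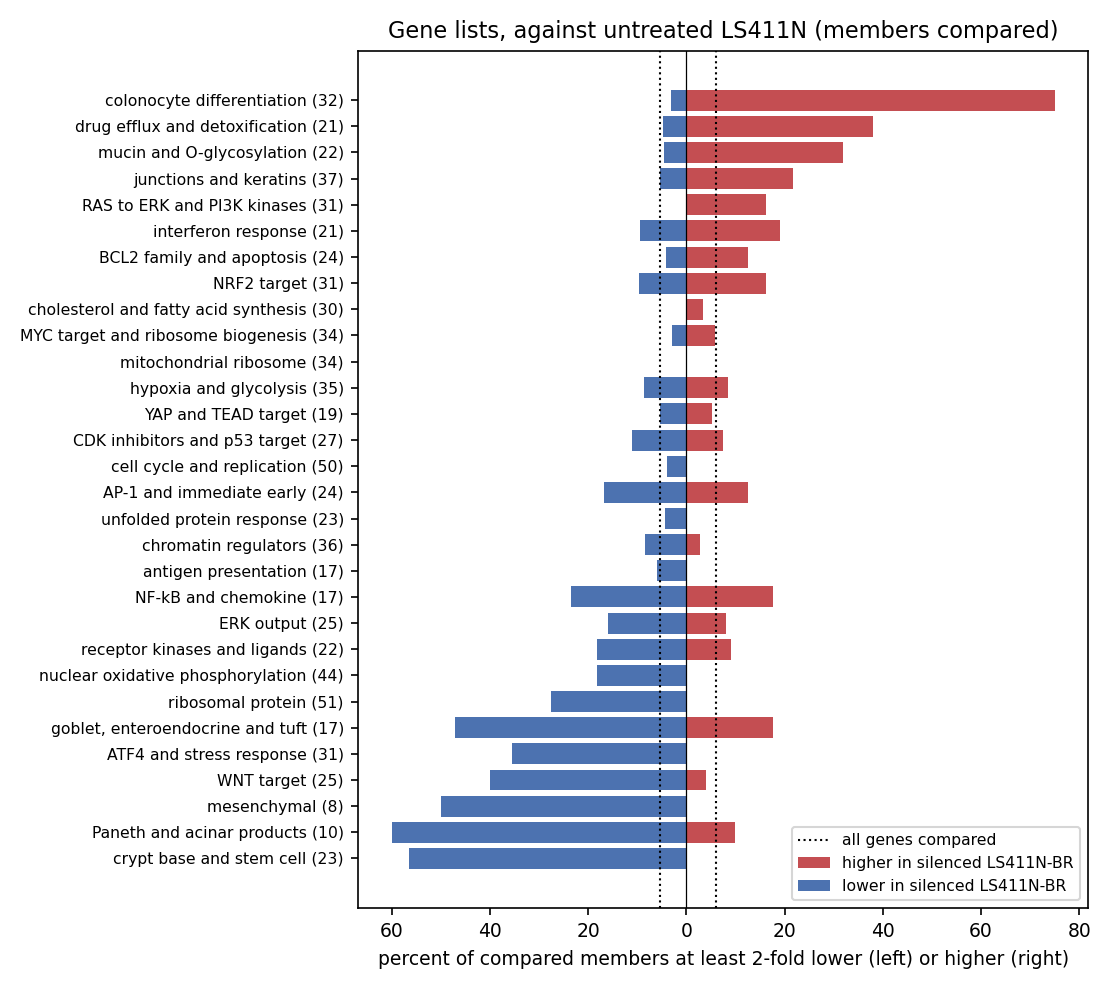
Percent of compared members of each gene list (rows, with the number compared) that were at least 2-fold lower (blue, left of 0) or higher (red, right of 0) in silenced LS411N-BR than in untreated LS411N, without overlap; the dotted lines mark the 5.36% and 6.12% of all 11660 genes. Colonocyte differentiation reaches farthest to the right with 24 of 32 members, and crypt base and Paneth lists farthest to the left with 13 of 23 and 6 of 10.

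Of 25 compared ERK output genes 2 were higher and 4 lower than in untreated LS411N, and 13 moved farther from and 7 nearer to the parental mean with silencing. Of all genes compared 6.12% were higher and 5.36% lower, and 45.1% moved farther and 18.9% nearer. The lower members were thus above the share of all genes, and in the unsilenced line 6 of the 25 were lower. Whether the list differs from other genes was not tested. DUSP5, a nuclear ERK phosphatase, had means of 14.5, 26.4 and 85.7 TPM in parental, unsilenced and silenced libraries, while KCNN4, a potassium channel, had 4.89, 0.573 and 0.346 TPM and the chemokine CXCL8 6.08, 1.595 and 0.650 TPM. Of 31 kinases and adaptors of the RAS, ERK and PI3K pathways, 5 were higher and 0 lower (1 and 0 in the unsilenced line), though only 2 were higher where shared genes were scaled to one total only. The docking protein GAB1 had means of 1.52, 5.102 and 7.31 TPM and the ERK-activated kinase RPS6KA1 of 15.3, 27.9 and 42.3 TPM. Among 22 receptor kinases and ligands 2 were higher and 4 lower, with the angiogenic factor VEGFA at 80.1, 37.9 and 21.7 TPM and the ephrin receptor EPHA1 at 3.804, 12.9 and 12.02 TPM.

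CDKN1A, the cell cycle inhibitor p21, read 8.94, 9.62 and 8.22 TPM in untreated LS411N, 21.6, 20.6 and 21.0 TPM in unsilenced and 64.6, 63.1 and 62.0 TPM in silenced LS411N-BR, 7.08-fold the parental level. Of the 27 compared members of its list, CDK inhibitors and p53 targets, 2 were higher and 3 lower, with a median of -0.37 (2 and 4 in the unsilenced line). Over all genes compared 6.12% were higher and 5.36% lower. Whether the list differs from other genes was not tested. The death receptor FAS was the other higher member, at 1.34, 6.48 and 10.2 TPM, whereas XPC, a DNA repair factor, was lower at 19.1, 7.41 and 6.98 TPM. Of 50 cell cycle and replication genes 0 were higher and 2 lower, CDC25C (10.4, 5.69 and 3.96 TPM) and LIG1 (22.6, 14.2 and 9.98 TPM). In the BCL2 family and apoptosis list 3 of 24 were higher and 1 lower.

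Of 21 compared interferon-stimulated genes, 4 were higher, 2 lower and 15 neither against untreated LS411N, with 0 higher and 1 lower in the unsilenced line. Over all genes compared 6.12% were higher and 5.36% lower against untreated LS411N. The viral RNA sensor OAS1 had means of 5.27, 8.19 and 20.1 TPM and ISG15, a ubiquitin-like modifier, of 5.34, 6.82 and 19.2 TPM, most of the difference arising with silencing (1.37 ± 0.07 SE for ISG15, limma adjusted p = 2.5e-07). IFI6 was low in both resistant groups, at 15.8, 0.621 and 0.456 TPM. Of 17 NF-kB targets and chemokines 3 were higher and 4 lower, among them the chemokine receptor CXCR4 at 13.5, 12.5 and 10.96 TPM in parental and 0.246 to 0.829 TPM in all 6 LS411N-BR libraries. Of 24 AP-1 and immediate early genes 3 were higher and 4 lower (6 and 4 with scaling over protein-coding genes), and 9 moved nearer and 9 farther with silencing. Over all genes compared 18.9% moved nearer and 45.1% farther, so the nearer AP-1 and immediate early genes were above that share. Whether the list differs from other genes was not tested. JUN, an AP-1 subunit, had means of 11.4, 3.04 and 3.96 TPM, and KLF4, a differentiation factor, of 27.2, 33.0 and 86.1 TPM.

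Mucin and O-glycosylation genes were higher in 7 of 22 cases and lower in 1. The shares over all genes compared were 6.12% higher and 5.36% lower. LGALS3, a galectin that binds mucins, read 138, 136 and 148 TPM in untreated LS411N, 698, 638 and 726 TPM in unsilenced and 1451, 1388 and 1373 TPM in silenced LS411N-BR. Its silenced level was 9.98-fold the parental one. The transmembrane mucin MUC17 had means of 0.0906, 1.48 and 6.59 TPM, a rise with silencing of 1.61 ± 0.08 SE (limma adjusted p = 1.7e-07). Of 17 goblet, enteroendocrine and tuft cell genes 8 were lower and 3 higher, with the goblet factor SPDEF at 4.59, 1.14 and 0.240 TPM and the tuft cell factor POU2F3 at 0.541, 1.38 and 5.22 TPM. The tuft cell genes TRPM5 (0.294, 0.0985 and 0.0823 TPM), SH2D6 (0.192, 0.0779 and 0.0633 TPM) and GFI1B (0.00386, 0.0459 and 0.0290 TPM) did not pass the filter. TRPM5 and SH2D6 thus ran opposite to POU2F3. Of 37 junction and keratin genes 8 were higher and 2 lower: the collagen COL17A1 of hemidesmosomes had 6.81, 11.4 and 33.7 TPM, and the leaky-junction claudin CLDN2 58.8, 12.9 and 10.7 TPM. Of 8 compared mesenchymal genes 0 were higher and 4 lower, also 0 and 4 by count in the unsilenced line, with fibronectin FN1 at 4.28, 0.0477 and 0.07997 TPM.

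Of 31 ATF4 and stress response genes, 11 were lower and 0 higher than in untreated LS411N (5 and 0 in the unsilenced line), with a median of -0.84. The shares over all genes compared were 5.36% lower and 6.12% higher. NUPR1, a stress-induced chromatin protein, read 59.3, 79.3 and 61.1 TPM in parental, 23.5, 25.3 and 22.9 TPM in unsilenced and 7.51, 10.7 and 7.63 TPM in silenced libraries, with no overlap. DDIT3, the stress factor CHOP, was low in both resistant groups and moved slightly back with silencing (40.6, 9.77 and 11.3 TPM), and the serine synthesis enzyme PHGDH had means of 187, 78.8 and 59.5 TPM. Of 23 unfolded protein response genes 1 was lower, and of 35 hypoxia and glycolysis genes 3 were higher and 3 lower, with 12 moving nearer and 12 farther. Over all genes compared 18.9% moved nearer and 45.1% farther, so the nearer members of the hypoxia and glycolysis list were above that share. Whether that list differs from other genes was not tested.

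Of 51 ribosomal protein genes 14 were lower and 0 higher than in untreated LS411N, and of 44 nuclear oxidative phosphorylation genes 8 were lower and 0 higher. The shares over all genes compared were 5.36% lower and 6.12% higher. In the unsilenced line 13 and 7 were lower, and with silencing 0 of either list passed 2-fold in limma, also at an unadjusted p under 0.05. RPLP1, an acidic stalk protein of the ribosome, read 4908, 5072 and 4711 TPM in parental, 664, 666 and 645 TPM in unsilenced and 594, 535 and 441 TPM in silenced libraries, and the respiratory subunit COX4I1 had means of 417, 117 and 105 TPM. These genes are short and many have copies elsewhere in the genome. Of the 257 compared genes with a longest transcript under 800 bases 30.7% were called higher or lower, against 9.87% of 9119 genes of at least 2000 bases, and the part of the tables' scale in these differences was not tested. PET100, a short gene of cytochrome c oxidase assembly, was 187, 15.5 and 10.8 TPM and HIST1H4K, a multicopy histone, 108, 1854 and 1467 TPM.

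Other lists lay close to or below the share of all genes (6.12% higher and 5.36% lower). In the mitochondrial ribosome list 0 of 34 passed 2-fold in either direction, in cholesterol and fatty acid synthesis 1 of 30 was higher, in MYC targets and ribosome biogenesis 2 of 34 were higher and 1 lower, and in antigen presentation 1 of 17 was lower. Of 36 chromatin regulators 1 was higher and 3 lower, and of 19 YAP and TEAD targets 1 was higher and 1 lower.

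Markers of colonic epithelium were present in both groups. Of 10 markers 9 passed the level filter, and their summed level was 2949 to 3170 TPM in untreated LS411N and 4295 to 4441 TPM in silenced LS411N-BR. CDX1, the tenth marker, was close to 0, at 0.00555 and 0.0232 TPM. Of 10 fibroblast and endothelial markers only LUM passed the filter, at 0.152 TPM in untreated LS411N and 2.78 TPM in silenced LS411N-BR. DCN, PECAM1, CDH5 and KDR were listed at 0 or below 0.02 TPM in both. The summed levels of 6 leukocyte, 5 squamous and 4 hepatocyte markers stayed below 0.4 TPM in every library of both groups.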

How the data were processed

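RNA was sequenced after TruSeq Stranded mRNA preparation, per the labels' protocols. The deposited values are TPM per gene, 1 table per line, and each library sums to 1000000 TPM. The submitters' processing notes name the aligner STAR, DESeq2 and the build GRCh38 but no roles. Read totals, and the program behind the TPM, are not given in the sources. Depth is therefore known only relatively, from the steps between low TPM values, and no counting interval is given.

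Each library was rescaled to 1000000 TPM over the 25540 shared genes and by the median of ratios to the 6 compared libraries, with Python 3.11.15, numpy 2.4.6, pandas 2.3.3 and scipy 1.17.1. Genes reaching 1 TPM in 3 or more of 6 libraries were kept, and values were taken as log2(TPM + 1). The test planned between the lines was conditional on tables scaled alike, and they were not, so differences between tables have no test. Silenced against unsilenced LS411N-BR used the intensity-trend fit of limma 3.58.1 (R 4.3.3), called at adjusted p under 0.05 and 2-fold, and was tested on simulated data. Members and gene lists were chosen with earlier results of these data known.

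Named genes are MUC1, the 10 largest protein-coding differences in each direction among called genes with at least 5 TPM in the higher group, the 6 moved nearest and the 6 moved farthest, and up to 4 members of each list with at least 4 called (2 of other lists). The members of a list named beyond these were chosen after their values were seen. They are MUC12, TFF3, LGR5, OLFM4, MYB, CDX1, MMP7, SPINK1, GSTP1, KLF12, MYC and CCND1, with the markers listed at or near 0. The same holds for SLC26A2, CA2, CD44, KLF5, ALDH1A1, DEFA5, DEFA6, REG3A, CELA3A, ITLN2, TRPM5, SH2D6 and GFI1B. Positions are GENCODE 29. Alternatives tried were the pseudocount, the filter, the scaling (1000000 over shared genes only, or over protein-coding genes), leaving out each library, a replicate block, the moderation settings and long genes only. A gene that the rule names is not reported here.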

Additional observations from a re-analysis of the deposited data

How the results depend on the processing

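The difference in distance stayed positive under every alternative run, between 0.1 (mean absolute differences; 0.101 with scaling shared genes to one total only) and 0.171 (a pseudocount of 0.1 TPM), and between 0.12 and 0.139 on leaving out 1 library. With 1 LS411N-BR library left out the exact p cannot go below 0.2. Genes moving farther outnumbered genes moving nearer under every alternative, the closest being 4189 against 2833 with scaling to one total only. With a pseudocount of 0.1 TPM 991 genes were higher and 935 lower than in untreated LS411N, against 714 and 625. The higher genes numbered 1127 when libraries were scaled over protein-coding genes, 517 among genes with a longest transcript of at least 2000 bases, and 591 to 739 on leaving out a library. The lower ones numbered 383 among those long genes and 536 to 665 on leaving out a library, and with scaling to one total only 598 were higher and 758 lower. On leaving out a library the filter still asked for 3 libraries, so genes at 1 TPM in the reduced group alone were not compared. Within LS411N-BR, limma called 172 genes higher and 166 lower by 2-fold with a pseudocount of 0.1 TPM, 171 and 57 with scaling to one total only, and 173 and 104 with scaling over protein-coding genes, against 104 and 97. The cause of these shifts was not tested. Without 1 library there were 90 to 109 higher and 82 to 100 lower. The 1220 values of the 112 called named genes under the alternatives kept their direction, and 1212 stayed at least 2-fold.

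Same-numbered replicates did not pair: the correlation of their deviations was 0.032, 0.013 and 0.0 between silenced and unsilenced LS411N-BR, and in no pair of these was the best match its own number. Between silenced LS411N-BR and untreated LS411N it was 0.059, -0.012 and 0.025, with the best match its own number for replicates 1 and 3. With a replicate block limma called 104 higher and 97 lower, as without it. Settings of limma listed for the comparison between the lines were run inside the LS411N-BR table, chosen after seeing the data, as was the restriction to long genes, and no trend, robust moderation and a spread from all 12 libraries left both counts as they were. Depth limits the genes with few TPM most in replicate 3 of untreated LS411N. Without that library 698 genes were higher and 567 lower, with genes at 1 TPM in untreated LS411N alone not compared.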
